A study of Mus musculus with 2 samples.

Results

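The 9 genes *Siglecf*, *Itgax*, *Plet1*, *Krt79*, *Car4*, *Atp6v0d2*, *Chil3*, *Ear1* and *Ear2*, which mark the identity of mouse alveolar macrophages (AMs), were measured in single AMs from lungs with and without a tumor. They are 9 of the 32285 gene identifiers in the count tables and were chosen by name, with earlier results of these data known. Shares over all genes given beside the members are therefore a scale and not a test of the set. Every member was read in each barcode with at least 500 detected genes and at most 10% of its unique molecular identifiers (UMIs) from mitochondrial (mt-) genes. The study placed Lewis lung carcinoma (LLC) cells that express the fluorescent protein tdTomato surgically into the left lung, and vehicle-control mice received no tumor cells. AMs were then sorted from the lungs of C57BL/6 mice labelled as postnatal week 10 and made into droplet 3′ libraries, with 1 library labelled Control-AM and 1 labelled Tumor-AM. Each library was taken as 1 sample. The study's methods also speak of hashtag reads used to assign barcodes to samples, which were not analysed here. The sources used here do not say how many mice were pooled into each library, so mouse, library preparation and tumor cannot be told apart. The study describes lung AMs as CD45-high, autofluorescent, CD11c+, CD11b-, Siglec-F+ and F4/80+ cells. *Itgax* encodes CD11c and *Siglecf* encodes Siglec-F. Cells that had lost either protein may not have been collected, where that protein was used for sorting.

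AMs live in the air spaces, where they clear surfactant, dust and microbes. They take on their identity after birth under the cytokine GM-CSF and the nuclear receptor encoded by *Pparg*, and they then maintain themselves largely without new monocytes. Macrophages that arise from monocytes in an inflamed lung usually begin without the full set of AM genes, so the set is widely used to tell resident from recruited cells. Its members do different work in the cell. *Siglecf* encodes a lectin that binds sialic acid, *Itgax* an integrin subunit and *Plet1* a surface protein held by a lipid anchor. *Car4* encodes a membrane-bound carbonic anhydrase, *Atp6v0d2* a subunit of the proton pump of lysosomes, *Krt79* a keratin and *Chil3* a secreted chitinase-like protein. *Ear1* and *Ear2* encode ribonucleases of the eosinophil-associated family.

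The control library kept 6185 of 8485 barcodes, with 64850143 UMIs and a median of 10370 UMIs per cell. The tumor library kept 7666 of 9175 barcodes, with 68801889 UMIs and a median of 8264. Of all barcodes, 25 had the same sequence in both libraries. Levels are counts per 1000000 UMIs (CPM), that is, all UMIs of a gene in a set of cells over all UMIs of that set, with exact 95% Poisson limits in parentheses. The limits of ratios are conditional binomial ones and those of shares are Clopper-Pearson ones, and every interval covers counting error only. No test was made, because cells of 1 library are not replicates. A gene was called lower when its CPM was at least 2-fold lower and kept when it was within 1.5-fold, and the same limits over all genes with at least 100 UMIs gave the background.

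Cells were called *Apoe*+ *S100a6*-high when they had at least 2 UMIs and at least 300 CPM of each of *Apoe*, which encodes the lipid carrier apolipoprotein E, and *S100a6*, which encodes a calcium-binding protein. Neither gene is a member. In the tumor library 969 cells (12.6%) met both cuts, 533 met only that for *Apoe*, 1778 only that for *S100a6* and 4386 met neither. In the control library 23 cells (0.372%) met both cuts. The class is a range of 2 levels and not a cell type: 345 further tumor cells would enter it at a cut of 150 CPM, and 438 would leave it at 600 CPM. Its cells were deeper, with a median of 10069 UMIs against 8065 in the other tumor cells, which CPM ratios are scaled for and shares of cells are not. The need for 2 UMIs of each gene also raises the cut in shallow cells, and scaling does not undo that choice of cells.

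The promoters are shown for the pair of paralogs that came apart in the data, *Ear1* and *Ear2*. They are also shown for *Krt79* and *Car4*, the markers with the largest differences between *Apoe*+ *S100a6*-high and other tumor cells. Each sequence holds the 250 bases before the RefSeq transcription start (GRCm38.p6), written 5′ to 3′ on the strand of the gene. RefSeq promoters matched 8 of the 9 members, all but *Atp6v0d2*. In the first pair capitals mark bases that differ between the paralogs or that lack a partner because the windows are offset. The *Ear1* window is chr14:43819640-43819889 on the minus strand, and that of *Ear2* is chr14:44102404-44102653 on the plus strand. The *Krt79* window is chr15:101940325-101940574 on the minus strand, and that of *Car4* is chr11:84957504-84957753 on the plus strand.
Ear1: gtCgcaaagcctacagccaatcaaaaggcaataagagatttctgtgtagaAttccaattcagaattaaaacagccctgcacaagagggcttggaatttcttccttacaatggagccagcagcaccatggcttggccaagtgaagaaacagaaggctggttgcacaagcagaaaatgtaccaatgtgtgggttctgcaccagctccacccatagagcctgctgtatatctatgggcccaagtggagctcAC
Ear2: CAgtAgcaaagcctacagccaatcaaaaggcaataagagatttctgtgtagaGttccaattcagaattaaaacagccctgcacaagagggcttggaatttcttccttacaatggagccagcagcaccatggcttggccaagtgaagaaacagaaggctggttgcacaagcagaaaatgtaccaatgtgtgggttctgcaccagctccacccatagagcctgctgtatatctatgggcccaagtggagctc
Krt79: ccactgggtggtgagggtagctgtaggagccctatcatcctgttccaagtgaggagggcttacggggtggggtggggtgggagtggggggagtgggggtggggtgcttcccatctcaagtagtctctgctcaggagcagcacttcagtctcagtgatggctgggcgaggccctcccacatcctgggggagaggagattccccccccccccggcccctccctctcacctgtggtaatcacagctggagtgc
Car4: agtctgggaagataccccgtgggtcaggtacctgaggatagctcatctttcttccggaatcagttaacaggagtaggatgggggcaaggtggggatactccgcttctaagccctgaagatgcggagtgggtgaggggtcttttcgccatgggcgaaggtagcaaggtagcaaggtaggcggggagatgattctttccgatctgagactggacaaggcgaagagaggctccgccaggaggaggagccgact

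Of the 248 aligned promoter bases of *Ear1* and *Ear2*, 246 were identical (99.2%), and their longest coding transcripts were identical at 690 of 713 aligned bases (96.8%). Each promoter held 1 match to TTGCNNAA, a C/EBP-type motif, as TTGCACAA on the plus strand, from 92 to 85 bases before the start in *Ear1* and from 90 to 83 in *Ear2*. That motif was present in 9.56% of 32851 RefSeq promoters of the same length, searched on both strands. The *Krt79* and *Car4* promoters held none of the 5 motifs searched, which also included GAGGAA (the core bound by PU.1, in 23.3% of promoters), AGGTCA (a nuclear receptor site, 14.0%), CACGTG (6.02%) and TGCTGA (a MAF site, 16.1%). Neither did that of *Itgax*. *Siglecf* held 1 GAGGAA on the minus strand, *Chil3* 2 of TGCTGA, and *Plet1* 1 each of AGGTCA, TTGCNNAA and TGCTGA. The GC content was 64.0% in the *Krt79* window, 56.4% in *Car4* and 47.6% in each *Ear* window.

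In the GENCODE vM21 annotation of GRCm38 all members are protein-coding genes. *Krt79* (ENSMUSG00000061397) lies at chr15:101929332-101940324 on the minus strand, *Car4* (ENSMUSG00000000805) at chr11:84957786-84966044 on the plus strand, *Siglecf* (ENSMUSG00000039013) at chr7:43351341-43359531 and *Itgax* (ENSMUSG00000030789) at chr7:128129547-128150657, both on the plus strand. *Plet1* (ENSMUSG00000032068) lies at chr9:50494525-50505482 on the plus strand and overlaps the annotated gene *Plet1os*, *Atp6v0d2* (ENSMUSG00000028238) at chr4:19876841-19922605 and *Chil3* (ENSMUSG00000040809) at chr3:106147554-106167564, both on the minus strand. *Ear1* (ENSMUSG00000072601) at chr14:43818765-43875517 on the minus strand overlaps 4 other annotated genes, among them the pseudogene *Ear-ps9*. *Ear2* (ENSMUSG00000072596) lies at chr14:44102654-44103534 on the plus strand and overlaps the annotated gene *Gm49101*. GENCODE gives *Ear1* a transcript that starts at 43819639, next to the promoter window, and another that starts at 43875517, to which the window is internal. Of the 410 windows of 91 bases, the read length, in the last 500 bases of the longest coding transcript, *Ear1* shared 105 (25.6%) with *Ear2*, *Ear10*, *Ear-ps2* or *Ear-ps9*. *Ear2* shared 38 (9.27%) and *Chil3* shared 36 (8.78%) with its paralog *Chil4*, so the levels of these 3 genes carry an uncertainty that the counting intervals do not cover. The other 6 members shared 0 windows.

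Between the whole libraries no member was lower by 2-fold, and 6 of 9 were kept. *Ear1*, *Car4* and *Krt79* were the farthest below the control, between 1.5-fold and 2-fold. The control library had 516 CPM of *Ear1* (510 to 521) and the tumor library 286 (282 to 290). That is 1.80-fold lower, a log2 ratio of -0.85 (-0.88 to -0.83). *Car4*, the carbonic anhydrase, had 251 CPM (248 to 255) without a tumor and 147 (144 to 150) with one, a log2 ratio of -0.78 (-0.81 to -0.74). *Krt79*, the keratin, had 495 CPM (490 to 501) and 306 (302 to 310), a log2 ratio of -0.69 (-0.72 to -0.67). Over 11361 genes, 3.67% were lower by the same limit, 4.23% were higher by as much and 83.4% were kept, and the median log2 ratio was -0.06. At a limit of 1.5-fold these 3 members were lower, beside 9.12% of all genes.

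The remaining members moved less between the libraries. *Ear2* was at 1153 CPM in control and 796 in tumor (log2 ratio -0.53, -0.55 to -0.52), in the same direction as its paralog *Ear1* and by less. *Siglecf* was at 137 and 102 CPM (-0.42, -0.47 to -0.38). *Chil3*, the chitinase-like gene, had 11657 and 10519 CPM, with a log2 ratio of -0.15. *Atp6v0d2* at 683 and 716 CPM, *Itgax* at 362 and 384 and *Plet1* at 1347 and 1559 were the 3 members above the control, with log2 ratios of 0.07, 0.09 and 0.21.

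Within the tumor library the *Apoe*+ *S100a6*-high cells had lower levels of *Krt79*, *Car4* and *Ear1*, and kept *Itgax*, *Atp6v0d2*, *Ear2* and *Chil3*. *Siglecf* and *Plet1* lay between the limits. Of the kept members, *Chil3* and *Ear2* were still in places 1200 and 1518 from the lowest of the 10526 genes. The 3 lower members stand beside a background of 5.32% of 10526 genes, and the 4 kept ones beside 84.7%. At 1.5-fold 5 members were lower, beside 10.8%, and at a cut of 600 CPM 4 were, *Siglecf* added, beside 6.54%. The median log2 ratio of the members was -0.62, and that of all genes was -0.14.

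*Krt79*, a keratin otherwise known from skin and hair follicles, was at 56.2 CPM (51.8 to 60.9) in the *Apoe*+ *S100a6*-high cells and at 351 (347 to 356) in the other tumor cells. It was 6.25-fold lower, with a log2 ratio of -2.64 (-2.76 to -2.53), and in place 96 from the lowest of the 10526 genes. *Car4*, whose enzyme interconverts carbon dioxide and bicarbonate at the cell surface, was at 22.1 CPM (19.3 to 25.1) and 169 (166 to 173). Its level was 7.67-fold lower, a log2 ratio of -2.94 (-3.13 to -2.75), in place 66, and the ratio was -3.66 without the 6% of barcodes with the most UMIs. *Ear1* was at 69.9 CPM (65.0 to 75.2) and 325 (320 to 330), which is 4.65-fold lower, a log2 ratio of -2.22 (-2.32 to -2.11), in place 143. None of the 3 reached 0: there were 593, 233 and 738 UMIs of *Krt79*, *Car4* and *Ear1* in the 969 cells.

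*Siglecf* was at 58.4 CPM (53.9 to 63.2) in the *Apoe*+ *S100a6*-high cells and 110 (107 to 112) in the others, 1.88-fold lower (log2 ratio -0.91, -1.03 to -0.79). *Plet1* was at 1075 CPM (1055 to 1095) and 1647 (1636 to 1657), a log2 ratio of -0.62 (-0.64 to -0.59). Both were below the other tumor cells by less than the 2-fold limit. *Chil3* was at 7504 and 11065 CPM (log2 ratio -0.56, -0.57 to -0.55), or 1.47-fold lower, near the 1.5-fold limit, and against cells under both cuts it was 1.61-fold lower and no longer kept. *Ear2*, at 597 and 832 CPM, was 1.39-fold lower (-0.48, -0.52 to -0.44), against 4.65-fold for *Ear1*. Against all control cells *Ear2* was 1.93-fold and *Chil3* 1.55-fold lower in the class, so neither was kept there.

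*Itgax* and *Atp6v0d2* were the members not below the other tumor cells. *Itgax*, whose product CD11c pairs with the integrin chain of *Itgb2*, was at 450 CPM (437 to 463) in the *Apoe*+ *S100a6*-high cells and 372 (367 to 377) in the others, a log2 ratio of 0.27 (0.23 to 0.32). *Atp6v0d2* was at 755 CPM (738 to 771) and 709 (702 to 716), a log2 ratio of 0.09 (0.06 to 0.12). With cells chosen on *S100a6* alone, *Atp6v0d2* was on the other side of 0, at -0.08. The common genes *Actb*, *Gapdh* and *Ptprc* had log2 ratios of -0.11, -0.06 and -0.32.

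**Figure D1:**
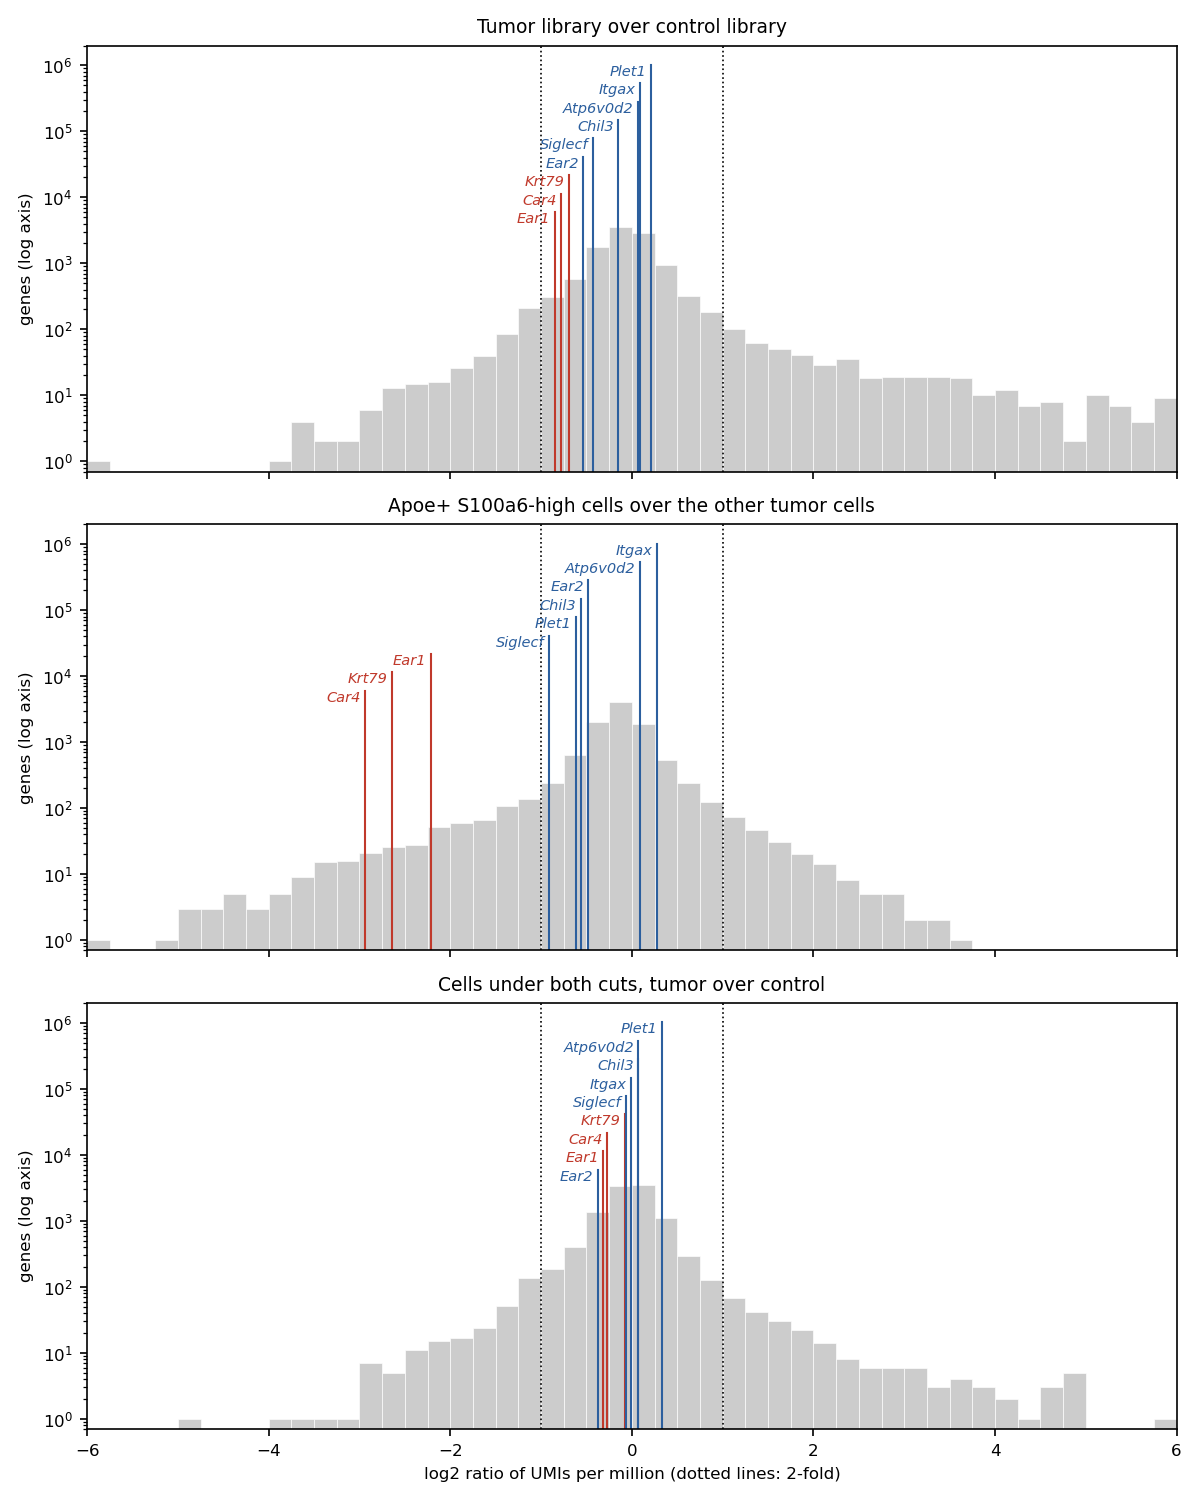
Log2 ratios of CPM (x axis) for the 9 markers, drawn as vertical lines with their names, over the number of genes per bin (y axis, log scale) in 3 comparisons; red marks *Krt79*, *Car4* and *Ear1*, blue the other 6, dotted lines 2-fold. In the middle panel the red lines stand at -2.64, -2.94 and -2.22, and in the lower panel, cells under both cuts in tumor over control, all 9 lie within 1.5-fold.

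The classes with only 1 of the genes high were compared with the 4386 tumor cells under both cuts. In cells high for *Apoe* only, *Car4* and *Krt79* were lower, beside 2.07% of 9848 genes. *Car4* was at 51.1 CPM (45.0 to 57.7) there and 209 (204 to 214) under both cuts, 4.10-fold lower, and *Krt79* at 161 (150 to 173) and 479 (472 to 486), 2.97-fold lower. In cells high for *S100a6* only, *Krt79* and *Ear1* were lower, beside 2.53% of 10217 genes. *Krt79* was at 141 CPM (135 to 146), 3.41-fold lower, and *Ear1* at 152 (146 to 158) against 415 (409 to 422), 2.73-fold lower. The order of *Car4* and *Ear1* differed between these classes in CPM: *Car4* had a log2 ratio of -2.03 (-2.22 to -1.85) with *Apoe* and -0.79 (-0.86 to -0.72) with *S100a6*, and *Ear1* had -0.60 (-0.68 to -0.52) and -1.45 (-1.51 to -1.39). In shares of cells, thinned to equal depth, the gap between the classes was smaller: *Car4* was detected in 12.0% (9.27 to 15.3) of cells with *Apoe* only, 16.2% (14.5 to 18.0) with *S100a6* only and 35.7% under both cuts, and *Ear1* in 40.7% (36.2 to 45.2), 32.9% (30.7 to 35.2) and 64.3%.

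*Siglecf* was at 132 CPM under both cuts, 95.5 in the cells high for *Apoe* only, 67.3 with *S100a6* only and 58.4 with both. The cells high for *S100a6* only were thus nearer to those high for both, although the intervals of the last 2 levels (63.5 to 71.3 and 53.9 to 63.2) did not overlap. *Plet1* was at 1699, 1341, 1626 and 1075 CPM in the same order of classes. For *Plet1* the cells high for *S100a6* only were within 1.05-fold of those under both cuts. Against the cells under both cuts, 4 members were lower in the *Apoe*+ *S100a6*-high cells, *Siglecf* by 2.26-fold, *Ear1* by 5.94, *Krt79* by 8.53 and *Car4* by 9.47, beside 5.51% of 9980 genes.

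**Figure D2:**
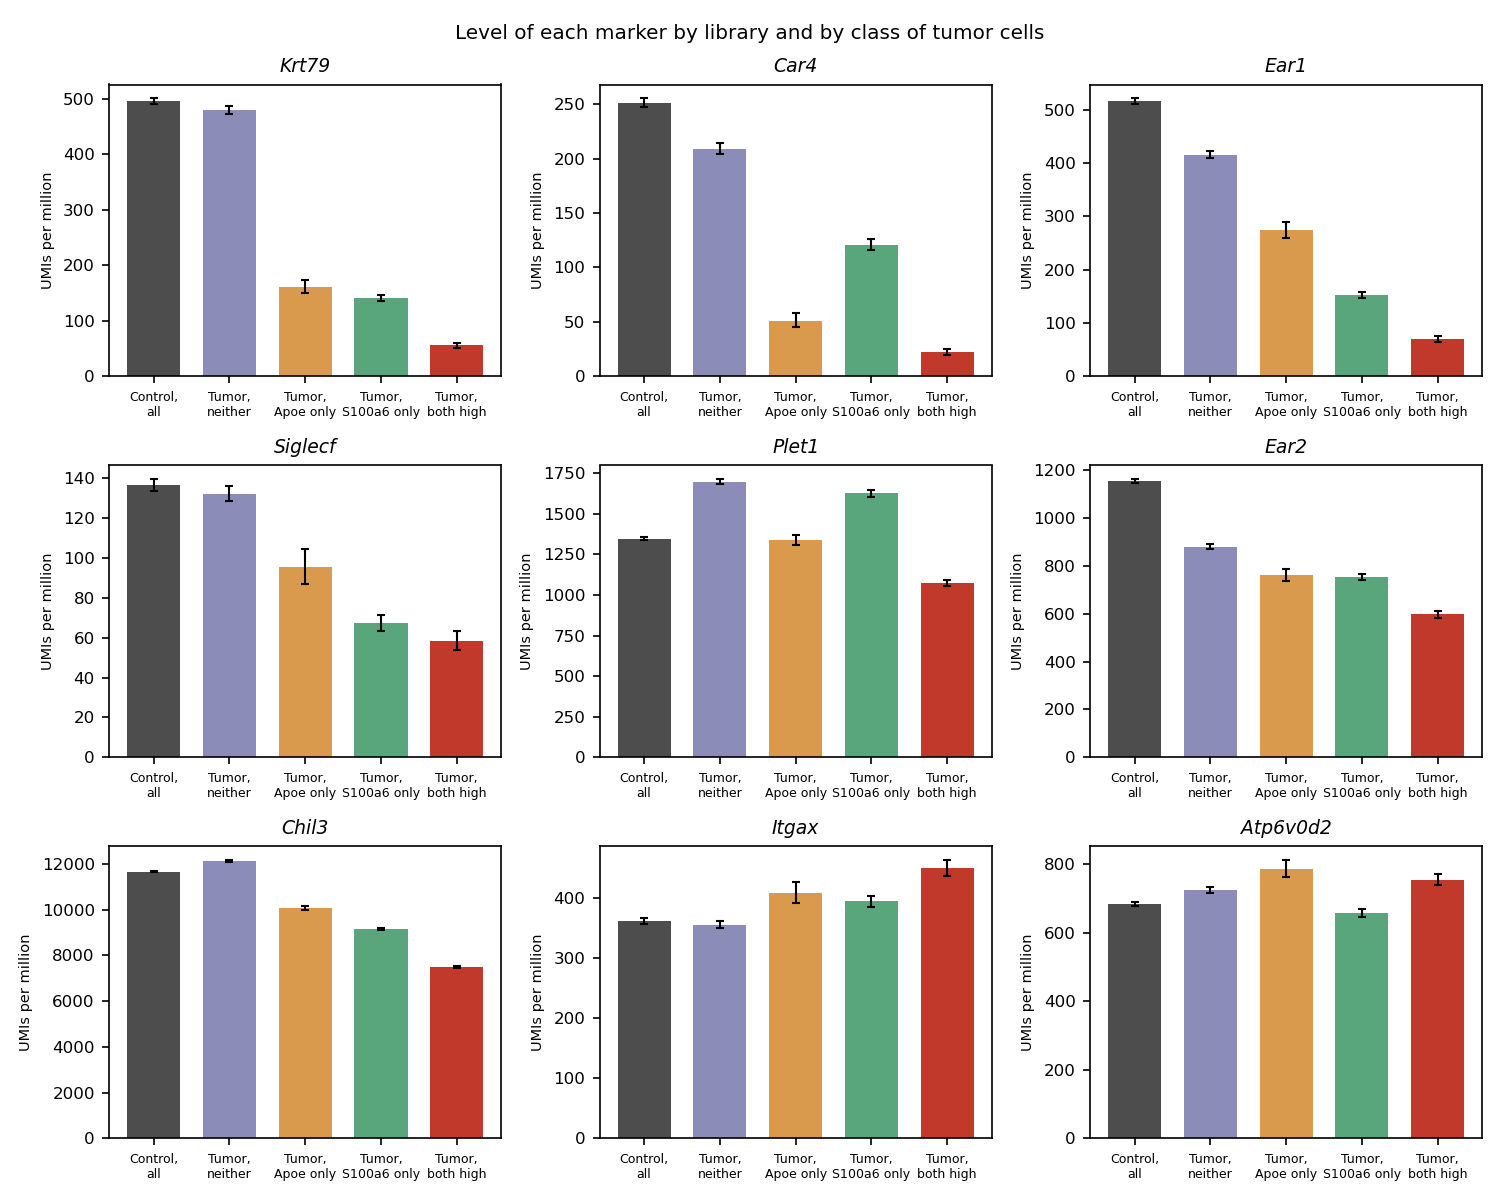
CPM (y axis, from 0, with a scale of its own in each panel) of each marker in all control cells and in the 4 classes of tumor cells by *Apoe* and *S100a6*, with exact 95% Poisson intervals as error bars. *Krt79* goes from 479 CPM in tumor cells under both cuts to 56.2 with both genes high, and *Atp6v0d2* from 723 to 755.

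Cells under both cuts were then compared between the libraries. In them 0 members were lower and 9 of 9 were kept, near the background of 2.50% and 89.2% of 10935 genes. The 5 cycling genes were lower in the same cells, with a median log2 ratio of -1.19. Control cells under both cuts had 504 CPM of *Krt79* (498 to 509) and tumor cells 479 (472 to 486), a log2 ratio of -0.07 (-0.10 to -0.05). *Siglecf* and *Itgax* had log2 ratios of -0.06 and -0.01, and *Atp6v0d2* and *Chil3* each 0.07. The ribonucleases and *Car4* stayed below the control, *Ear2* at -0.38 (-0.40 to -0.36), *Ear1* at -0.32 (-0.34 to -0.29) and *Car4* at -0.27 (-0.31 to -0.23). *Plet1* was above it, at 0.33 (0.32 to 0.35). Over all cells outside the *Apoe*+ *S100a6*-high class 0 members were lower (background 2.70%), with *Ear1* at -0.67, *Car4* at -0.57 and *Krt79* at -0.50. At 1.5-fold 1 member, *Ear1*, was lower, beside 7.65%.

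Levels were also followed along the summed CPM of *Apoe* and *S100a6* in each tumor cell, in 6 steps that hold from 297 to 2971 cells. *Krt79* was at 533 CPM in cells without a UMI of either gene, then 402 under 300 CPM, 177 from 300 to 1000, 110 from 1000 to 2000, 86.4 from 2000 to 4000 and 26.0 (21.2 to 31.7) at 4000 or more, where 4.89% of the first level was left. *Ear1* went from 460 through 356, 198, 138 and 114 to 45.5 CPM (39.0 to 52.8), or 9.90% of its first level. *Car4* began at 224 CPM, stood at 191 under 300 CPM, at 93.9, 82.5 and 80.1 in the 3 steps from 300 to 4000 and at 18.4 (14.4 to 23.3) in the last. The intervals of the first and last steps did not overlap for any of these 3 genes.

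*Plet1* kept 75.1% of its first level of 1718 CPM up to the step from 2000 to 4000 and 29.0% (499 CPM) in the last. *Chil3* was at 12325 CPM in the first step and 5189 in the last (42.1%), *Ear2* at 919 and 420 (45.7%) and *Siglecf* at 143 and 56.6 (39.7%). For *Plet1* most of the difference lay in the last step, in 297 cells, whereas *Siglecf* was already at 58.3% of its first level from 300 to 1000 CPM. *Itgax* and *Atp6v0d2* ended at 117% and 108% of their first levels, from 351 to 410 CPM and from 719 to 775 CPM.

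**Figure D3:**
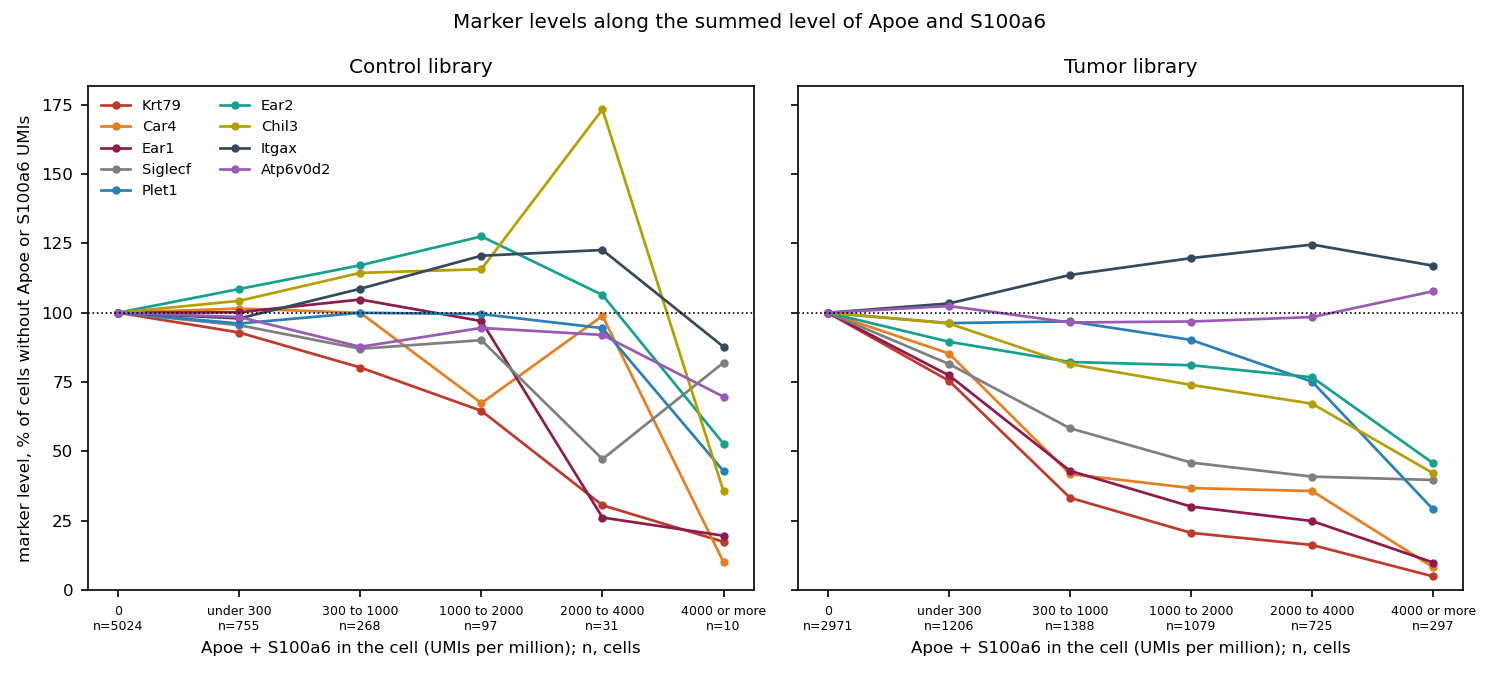
Level of each marker (y axis, percent of its level in cells without *Apoe* or *S100a6* UMIs) against the summed CPM of *Apoe* and *S100a6* in the cell (x axis, 6 steps, with the number of cells) in the control and the tumor library. In the tumor library *Krt79* ends at 4.89% and *Itgax* at 117%; the last control step holds 10 cells.

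In the control library cells with a high summed level were few, 31 from 2000 to 4000 CPM and 10 at 4000 or more. *Krt79* was at 509 CPM in the 5024 control cells without either gene, 409 in the 268 cells from 300 to 1000, 329 in the 97 cells from 1000 to 2000 and 155 (110 to 213) in the 31 cells. *Ear1* was at 517, 541, 501 and 135 CPM (92.9 to 190) in the same steps. *Ear1* therefore stood near its first level in control cells up to 2000 CPM, whereas in tumor cells it had gone from 460 to 138 CPM over the same steps. *Chil3* was at 11469 CPM in the first control step, 19880 in the 31 cells and 4083 (3650 to 4554) in the 10 cells of the last step, so it lay above its first level in the one and below it in the other. In the last step *Krt79* was at 88.5 CPM (35.6 to 182) and *Ear1* at 101 (43.7 to 199), from 7 and 8 UMIs.

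The 23 control cells that met both cuts were too few for a ratio. They had *Krt79* at 77.8 CPM (44.5 to 126), *Car4* at 48.6 (23.3 to 89.4), *Siglecf* at 53.5 (26.7 to 95.7) and *Ear1* at 209 (151 to 282). *Ear2* was at 919 CPM (793 to 1060), *Chil3* at 13613 (13113 to 14126), *Plet1* at 914 (788 to 1054), *Atp6v0d2* at 481 (391 to 586) and *Itgax* at 442 (356 to 543). The levels of the tumor class lay inside these intervals for *Krt79*, *Siglecf* and *Itgax*. They lay under them for *Ear1*, *Ear2*, *Chil3* and, at 22.1 CPM, *Car4*, and above them for *Atp6v0d2* and *Plet1*. Of them 3 had markers of another cell type, and 20 were in control cluster 13, led by *S100a9*, *Ifitm3* and *S100a6*. That cluster also held 10 of the 22 control cells with such markers. The part of cells with such markers in these levels was not tested.

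A larger class of control cells was high for *S100a6*, whatever their *Apoe* (270 cells). In it all 9 members were kept, beside 89.5% of 10503 genes. *Krt79* was at 360 CPM (338 to 383) against 501 (496 to 507) in the other control cells, a log2 ratio of -0.48 (-0.57 to -0.39), and *Ear1* at 442 against 519 CPM, a log2 ratio of -0.23 (-0.31 to -0.15). The same cut in the tumor library took 2747 cells, in which *Krt79*, *Ear1* and *Car4* were lower (background 2.96%), with log2 ratios of -2.02, -1.72 and -1.19. The *S100a6* level of the classes differed, at 949 CPM in control and 1362 in tumor, and so did their *Apoe* level, at 103 and 954 CPM.

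Shares of cells with a UMI were compared after every cell was thinned to 3800 UMIs, with shallower cells left out (595 control and 729 tumor cells, of which 29 were *Apoe*+ *S100a6*-high). *Krt79* was detected in 70.7% (69.5 to 71.9) of control cells, 66.1% (64.6 to 67.6) of tumor cells under both cuts and 12.2% (10.2 to 14.5) of the 940 *Apoe*+ *S100a6*-high cells. *Car4* was detected in 45.0%, 35.7% and 4.04% (2.88 to 5.51), and *Ear1* in 71.1%, 64.3% and 19.0% (16.6 to 21.7). Unthinned, the last class had shares of 21.3%, 9.29% and 32.8%.

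A background was looked for in cells of other types, taken as those with markers of another lineage and under 20 UMIs of other AM genes. They were 15 control and 12 tumor cells, with medians of 3671 and 5844.5 UMIs against 10069 in the *Apoe*+ *S100a6*-high class. After thinning, *Krt79* was detected in 1 of 10 such tumor cells (10.0%, 0.253 to 44.5), and *Car4* and *Ear1* in 0 of 10, which allows a share of up to 30.0% when the limit is set at 3 cells. The shares of *Krt79*, *Car4* and *Ear1* in the *Apoe*+ *S100a6*-high cells lay within these limits. By level, the 12 tumor cells had 0 UMIs of *Ear1*, *Car4* and *Siglecf*, and 3 UMIs would be 31.3 CPM. The *Ear1* and *Siglecf* levels of the class, 69.9 and 58.4 CPM, were above that limit and the *Car4* level of 22.1 was not. *Krt79* was at 20.9 CPM (2.53 to 75.5) in these cells, an interval that holds the 56.2 CPM of the class, so *Krt79* and *Car4* could not be told from background. *Chil3* was detected in 3 of 10 of the tumor cells and 7 of 7 of the control cells of other types, so a UMI of *Chil3* alone did not set AMs apart. *Car4* was detected in 2 of 7 such control cells, and it is also a gene of lung endothelium.

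Of the other members all but *Siglecf* were detected in more than 75% of the class, *Chil3* in 96.3% (94.9 to 97.4). *Plet1* was detected in 97.8% of control cells and 82.7% (80.1 to 85.0) of *Apoe*+ *S100a6*-high cells, and *Ear2* in 93.2% and 77.8%. *Itgax* was detected in 70.6% and 77.1% and *Atp6v0d2* in 89.7% and 90.7%. *Siglecf*, a gene of few UMIs, was detected in 39.4% and 20.7% (18.2 to 23.5), and the class high for *S100a6* only, at 21.7% (19.8 to 23.8), had an interval that overlapped the latter. *Siglecf* was found in 0 of 10 tumor cells of other types, so its share in the class also lay under the 30.0% limit, although its level did not.

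**Figure D4:**
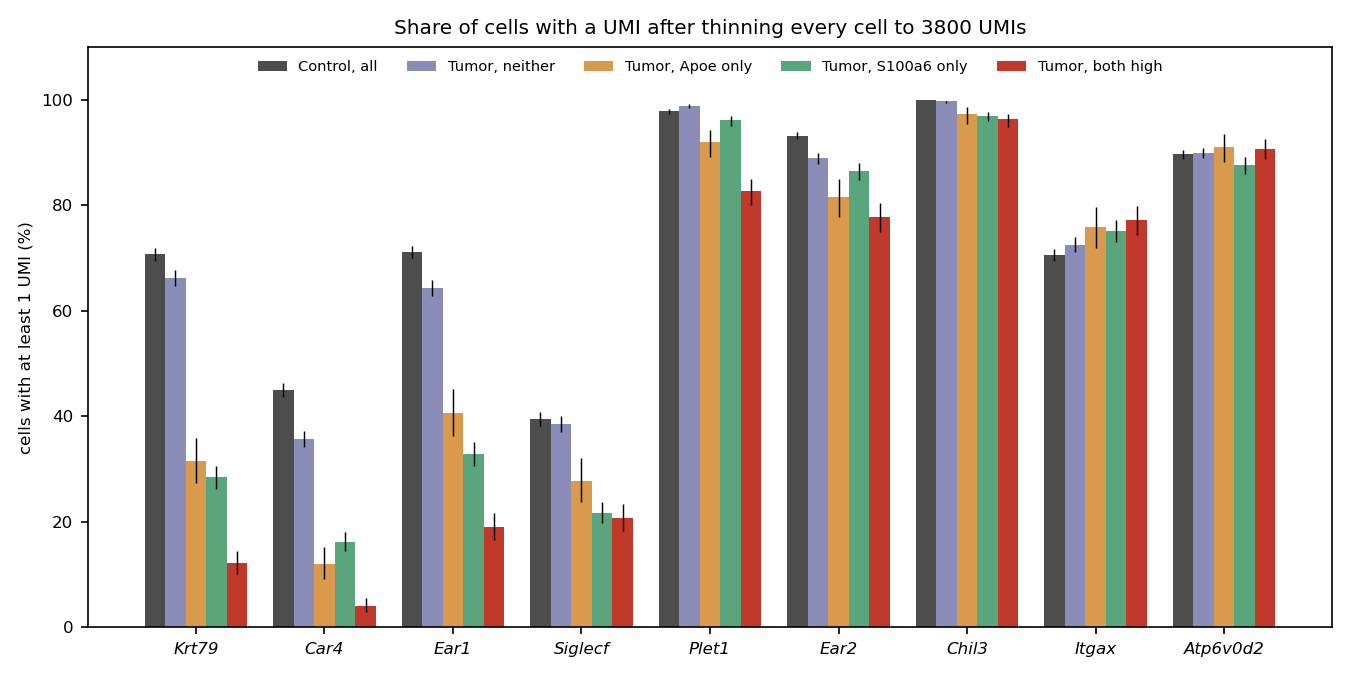
Percent of cells with at least 1 UMI of each marker (y axis) after thinning every cell to 3800 UMIs, in control cells and the 4 classes of tumor cells, with exact 95% binomial intervals. *Krt79*, *Car4* and *Ear1* have their lowest bars in the class with both genes high, at 12.2%, 4.04% and 19.0%, and *Atp6v0d2* is near 90% in each class.

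Counted per cell at the same depth, control cells had 6.77 of the 9 members (SD over cells 1.27, 5590 cells) and *Apoe*+ *S100a6*-high cells 4.81 (SD 1.22, 940 cells). Tumor cells under both cuts had 6.54, those high for *Apoe* only 5.50 and those high for *S100a6* only 5.42. At most 4 members were found in 4.04% of control cells and in 38.6% of the *Apoe*+ *S100a6*-high cells, and at least 7 in 60.9% and 7.23%. Cells without a UMI of *Krt79*, *Car4* or *Ear1* made up 6.53% (5.90 to 7.21) of control cells, 11.8% of tumor cells under both cuts and 70.6% (67.6 to 73.5) of the *Apoe*+ *S100a6*-high cells. Of these 664 cells, 646 (97.3%) had a UMI of *Itgax* or *Atp6v0d2*. The same share was 94.8% among such control cells and 95.8% among such tumor cells under both cuts, so it did not set the class apart. The 3 genes were picked for their low levels in the class, and whether they were absent together beyond their single shares was not tested. In the class 1 cell (0.106%) had 0 of the 9 members.

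Each library was also clustered without the 9 members among the variable genes, which gave 14 control and 12 tumor clusters of at least 50 cells, numbered by size. Tumor cluster 4 (868 cells, led by *Fstl1*, *Hpse* and *Slamf7*) had 48.7% of its cells in the *Apoe*+ *S100a6*-high class. It had *Krt79* at 43.0 CPM and *Ear1* at 50.6, the lowest among the 12 tumor clusters, and *Itgax* at 472 and *Atp6v0d2* at 817, the highest among them. Against all other tumor cells 4 members were lower in this cluster, *Krt79*, *Ear1*, *Siglecf* and *Car4*, beside 6.86% of 10526 genes. Tumor cluster 1 (1587 cells, led by *Vps37b*, *Il6* and *F13a1*) had *Krt79* at 101 CPM, *Ear1* at 117, and *Car4* at 44.3, the lowest of the 12. The same cluster had *Plet1* at 2001 CPM, the highest, with 17.0% of its cells in the class. *Krt79* and *Ear1* were thus low in a cluster in which *Plet1* was high.

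Tumor cluster 7 (600 cells), led by the MHC class II genes *H2-Aa* and *Cd74* and with *Trbc2* and *Igkc* among its leading genes, had *Krt79* at 89.7 CPM and *Ear1* at 134. At the other end, tumor cluster 6 (616 cells, led by *Wfdc10* and *Apoc1*, with the AM genes *Fabp1* and *Marco*) had *Ear1* at 857 CPM, *Ear2* at 1608 and *Chil3* at 14357, each the highest of the 12. *Krt79* was highest in cluster 2 (611 CPM) and *Car4* in cluster 5 (430 CPM, led by *Ereg* and *Akr1b8*). From the lowest to the highest tumor cluster *Ear1* spanned 16.9-fold, *Krt79* 14.2-fold and *Car4* 9.70-fold, and *Atp6v0d2* 4.11-fold. Across the 14 control clusters the same genes spanned 3.48-fold, 3.43-fold, 4.95-fold and 2.07-fold. The *Atp6v0d2* span in tumor rested on cluster 12, without which it was 1.69-fold, under that of the control clusters.

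In the 12 tumor clusters *Siglecf*, *Itgax*, *Plet1*, *Atp6v0d2*, *Chil3* and *Ear2* were lowest in cluster 12, which stood apart from the others: its 50 cells were led by the fibroblast genes *Dcn* and *Col3a1*, had a median of 2223.5 UMIs and held 15 of the 24 tumor cells with markers of another type. In the control library cluster 12 (209 cells, led by *Slc11a1*, *Slc40a1* and *Pla2g7*) was lowest in *Car4* (76.2 CPM) and *Siglecf* (55.6 CPM), and also in *Plet1*, *Chil3* and *Ear2*. *Krt79* was lowest in control cluster 13, at 170 CPM, in which *Chil3* was the highest of the 14 at 18648 CPM. Control cluster 6 (460 cells, led by *Fstl1* and *Mmp12*) had the lowest *Ear1*, at 218 CPM, and the highest *Atp6v0d2*, at 1000 CPM (975 to 1024), the pair of extremes that tumor cluster 4 also held in its own library.

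**Figure D5:**
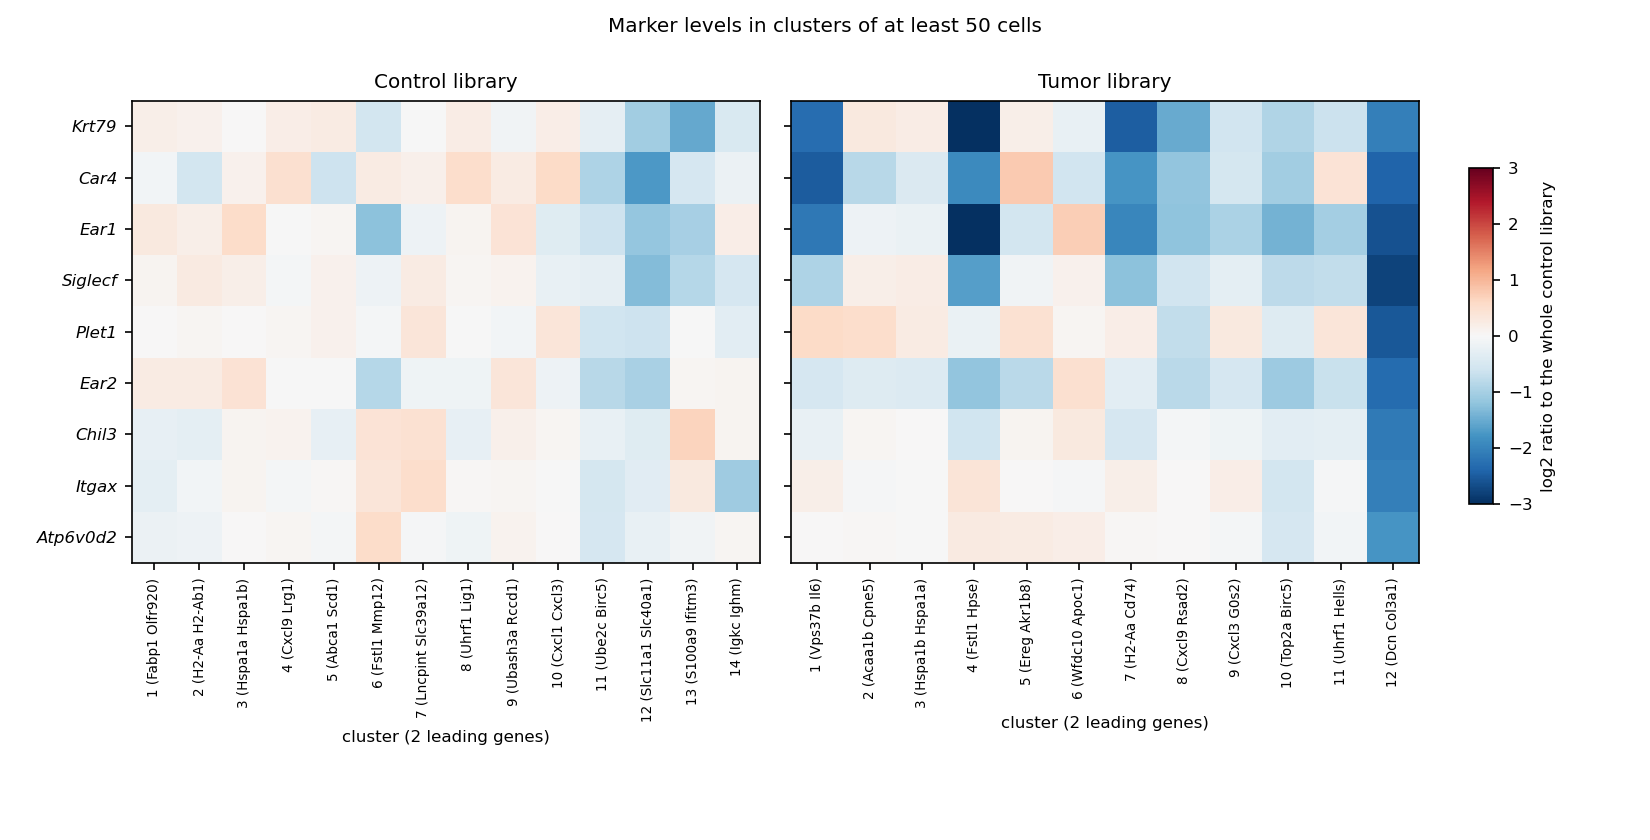
Log2 ratio of each marker's CPM to that of the whole control library (color; red higher, blue lower) in the 14 control and 12 tumor clusters of at least 50 cells (x axis, with 2 leading genes each). In tumor clusters 1, 4 and 7 *Krt79* and *Ear1* are blue, at 43.0 to 134 CPM, while *Itgax* and *Atp6v0d2* stay near the control level.

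A cluster of 38 tumor cells, number 13, under the size used for the other comparisons, was led by the complement genes *C1qb*, *C1qa* and *C1qc* and by *Apoe*, at 19104 CPM. Of its cells 65.8% were *Apoe*+ *S100a6*-high. Its *Plet1*, at 66.4 CPM (48.4 to 88.8), *Ear2*, at 124 (98.8 to 153), and *Chil3*, at 1491 (1400 to 1586), were far below the 1075, 597 and 7504 CPM of the whole class. *Siglecf*, at 50.1 CPM (34.7 to 70.1), and *Atp6v0d2*, at 706 (645 to 773), were near those of the class, at 58.4 and 755 CPM. Against all other tumor cells 7 of the 9 members were lower in this cluster, all but *Itgax* and *Atp6v0d2*, beside a background of 18.7% of 10526 genes. Without its 25 cells the log2 ratios in the rest of the class were -2.61 for *Krt79*, -2.92 for *Car4* and -2.17 for *Ear1*.

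The *Apoe*+ *S100a6*-high cells were further split at their median *Cd63* level of 990 CPM, since *Cd63*, a tetraspanin of late endosomes, also varied among them. The 484 cells above it had 0 members lower by 2-fold than the 485 below (background 0.630% of 7303 genes). *Plet1* was at 783 CPM (761 to 805) above and 1474 (1438 to 1510) below, a log2 ratio of -0.91 (-0.97 to -0.86). *Krt79* (41.0 and 77.0 CPM) and *Ear1* (51.7 and 94.9 CPM) had log2 ratios of -0.91 and -0.88, and *Ear2* -0.59. *Atp6v0d2* was higher above the median, at 816 against 671 CPM (0.28, 0.22 to 0.35). The cells above and below also differed in *Apoe*, at 3248 and 1269 CPM.

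Across the 26 clusters of both libraries the likeness of the members is given as Pearson correlations of log2(CPM + 10) without a test, since the clusters share 2 libraries and differ in depth. *Krt79* went with *Ear1* (r = 0.89), *Siglecf* (0.84) and *Car4* (0.77), and *Itgax* with *Atp6v0d2* (0.81) and *Plet1* (0.80). A pair of clusters had a median under 3000 UMIs, the fibroblast-led tumor cluster 12 and control cluster 14, whose 96 cells had a median of 1639 UMIs and were led by the B cell genes *Igkc*, *Ighm* and *Cd79a*. Without both, *Krt79* had 0.89 with *Ear1*, 0.90 with *Siglecf* and 0.75 with *Car4*, and *Itgax* had 0.70 with *Atp6v0d2* and 0.46 with *Plet1*. The value of *Itgax* with *Atp6v0d2* was 0.97 in the tumor clusters and 0.36 in the control clusters, and without the low-depth cluster of each 0.76 and 0.67, so the gap between the libraries rested on those clusters. *Krt79* with *Car4* was then 0.78 in tumor and 0.53 in control. *Krt79* and *Itgax* had an r of 0.08, and -0.29 without the low-depth clusters. Against *Apoe* and *S100a6*, *Krt79* had -0.79 and -0.80 and *Itgax* 0.10 and -0.26, which became 0.34 and 0.25 without them. The paralogs *Ear1* and *Ear2* had 0.80.

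Among 5799 genes the pattern most like that of *Krt79* was that of *Cidec* (0.97), which encodes a lipid droplet protein, followed by the cyclin gene *Ccnd2* (0.96). For *Car4* the highest values were lower, 0.82 for *Cd2* and 0.81 for *Cyb561*. They were *Gm41307* (0.94) and the cytokine gene *Il18* (0.92) for *Ear1*, *Ltc4s* and *H2-DMa* (both 0.92) for *Ear2*, and *Kctd12b* and *Alox5* (both 0.94) for *Siglecf*. *Itgax* was nearest to *Tbxas1* (0.95) and *Tgfbr1* (0.92), *Plet1* to *Cd44* and *Tcf7l2* (both 0.95), *Atp6v0d2* to *Lcp1* and *Tmem38b* (both 0.91), and *Chil3* to *Sirpb1c* (0.91) and *Enpp1* (0.88). Without the low-depth clusters both genes stayed the nearest for *Krt79* and *Ear2*, and 1 of the 2 for *Siglecf*, *Plet1*, *Car4*, *Chil3* and *Ear1*. Neither stayed for *Itgax*, then nearest to *Plod3* (0.86) and *Cd84* (0.85), nor for *Atp6v0d2*, then nearest to *S100a1* (0.87) and *Fam213a* (0.82).

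Relatives and partners of the members were read in the same comparison of *Apoe*+ *S100a6*-high with other tumor cells. Of 14 such genes 7 had enough UMIs, of which 2 were lower (background 5.32%), 1 higher (1.98%) and 4 kept (84.7%). The keratin gene *Krt19* had 21.0 against 220 CPM, or a log2 ratio of -3.38 (-3.58 to -3.19), below even *Krt79*, and *Ear6* at 2.46 against 5.08 CPM (-1.04). *Itgam*, which encodes CD11b, the integrin chain that the study describes AMs as lacking, was at 50.2 against 8.72 CPM (2.53). Of the proton pump, *Atp6v0d1* at -0.21 and *Atp6v1a* at 0.03, the 2 further subunit genes read here, were kept, as was *Itgb2*, the partner chain of *Itgax*, at 0.41.

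A list of 24 further AM genes was read in the same comparison. In the *Apoe*+ *S100a6*-high cells 5 were lower (background 5.32%), 16 kept (background 84.7%) and 1 higher (background 1.98%), with a median log2 ratio of -0.28. The scavenger receptor gene *Marco* had -3.62, the fatty acid-binding protein gene *Fabp1* -3.42, *Perp* -3.03, *Cidec* -2.96 and *Il18* -1.22. *Fabp5*, another fatty acid-binding protein gene, had 1.06. Among the kept were *Csf2ra* (0.17) and *Csf2rb* (0.06), which encode the receptor of GM-CSF, and the transcription factor genes *Pparg* (-0.54), *Bhlhe41* (-0.07) and *Cebpa* (-0.12). Of these, *Pparg* was near the 1.5-fold limit. Between the whole libraries *Marco* and *Fabp1* were the 2 of 24 lower in tumor (background 3.67%), and 15 were kept (background 83.4%).

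Markers of monocyte-derived and interstitial macrophages were mostly higher in tumor. Of 13 listed genes 12 had enough UMIs, and 10 were higher in the tumor library (background 4.23%). In the *Apoe*+ *S100a6*-high cells 6 were higher than in the other tumor cells (background 1.98%), led by *C1qa* (3.34), *C1qb* (3.04), *C1qc* (2.92), *Itgam* (2.53) and *Ly6c2* (1.93). The class includes 25 cells of tumor cluster 13, which the C1q genes lead, and ratios of this list without those cells are not given. *Cx3cr1*, at 2.75 against 3.18 CPM, and *Vcan*, at 3.22 against 3.62, were kept, and both ratio intervals include 0. The summed level of the list was 582 CPM in the control library, 855 in tumor cells under both cuts and 2324 in the *Apoe*+ *S100a6*-high cells. The highest gene of each sum alone had 359, 553 and 1430 CPM. In the *Apoe*+ *S100a6*-high cells *Tgfb3* was at 0. *Ly6c2*, a defining gene of monocytes, was at 4.64 CPM there. Their part in the lower marker levels was not tested.

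Summed levels were also read for lists of other cell types. Of the eosinophil list, chosen because eosinophils also carry Siglec-F and *Ear* genes, *Prg2*, *Epx* and *Ccr3* were at 0 in both libraries. The neutrophil list summed to 183 CPM in the *Apoe*+ *S100a6*-high cells, 168 of it from 1 gene, and to 113 in the other tumor cells. In the former *S100a9*, *Retnlg* and *Ly6g* were at 0. The lists of 6 T or NK, 6 dendritic, 5 B or plasma and 6 fibroblast genes summed to between 0.379 and 5.88 CPM in the class. The 5 endothelial genes summed to 32.2 CPM in the class and 29.0 in the other tumor cells, of which the highest gene gave 30.9 and 24.1. The 8 epithelial genes summed to 29.6 and 45.0 CPM. Between the whole libraries the epithelial list was at 128 CPM in control and 42.7 in tumor, and of its 6 genes with enough UMIs 3 were lower (background 3.67%), *Epcam* (53.7 and 4.39 CPM), *Cdh1* (40.8 and 19.3) and *Sftpb* (1.03 and 0.480). Their part in the whole-library levels of the members was not tested. The fibroblast list summed to 0.771 CPM in the control library and 32.4 in tumor. Leaving out the cells with markers of another type, 3 of which were in the class, gave log2 ratios of -2.65 for *Krt79*, -2.94 for *Car4* and -2.22 for *Ear1* in the class. The 5 cycling genes were all lower in the class (background 5.32%), at a sum of 26.5 against 94.2 CPM, and their part in the result was not tested.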

How the data were processed

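AMs of 1 control and 1 tumor library were profiled with 10x Genomics 3′ chemistry. The authors made the deposited tables of UMI counts per gene and barcode, which are not normalized; the submitters' processing notes name Cell Ranger 4.0.0, bcl2fastq 2.20 and build mm10, and the study's methods name another Cell Ranger version. Groups came from the sample titles. Of 32285 identifiers 32158 had a symbol.

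The 9 members and the gene lists were chosen with earlier results of these data known. The genes named are the members in full, per list up to 5 genes with the largest ratio in either direction, the control genes *Actb*, *Gapdh* and *Ptprc*, and per member the 2 genes most alike across clusters. The transcription factor and GM-CSF receptor genes, *Itgb2* and the proton pump genes were added after their values were seen.

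Barcodes with at least 500 genes and at most 10% mitochondrial UMIs were kept. CPM were taken from UMIs summed over cells, a count of 0 having an upper limit of 3 counts. Cells were thinned without replacement to the 10th percentile of depth of the shallower library. Per library, 2000 variable genes without members, ribosomal, mt- and immune receptor genes, 50 components and 15 neighbors gave Leiden clusters at a resolution of 1. Scrublet called 0 doublets in each library and was taken not to have worked, so none were removed; alternatives leave out the highest 6% of scores or the 6% of barcodes with the most UMIs. Cells with at least 10 UMIs of the T or NK, B or plasma, fibroblast, endothelial or dendritic cell lists, or at least 20 of the neutrophil list, counted as other types, a rule set after the data were seen. The epithelial list was not used there because *Epcam* and *Cdh1* are expressed in AMs. Steps were tested on simulated data with known answers.

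Alternatives covered the filter, doublets, depth, scaling, the limits, the cuts and the clusters. Python 3.11.15, numpy 2.4.6, scipy 1.17.1, pandas 2.3.3, scanpy 1.11.5, igraph 0.11.9, matplotlib 3.10.9 and biopython 1.88 were used.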

Additional observations from a re-analysis of the deposited data

Results flagged for a closer look

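*Plet1* moved in opposite directions within the tumor library. Against control cells its log2 ratio was -0.33 in the *Apoe*+ *S100a6*-high cells and 0.33 in cells under both cuts of each library. The difference between these classes was not tested. In the 2300 control and 1509 tumor barcodes that the quality filter left out, which enter no comparison above, *Plet1* was also higher in tumor, at 1324 against 1053 CPM, a log2 ratio of 0.33.

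*Chil3* had a log2 ratio of -0.64 in the *Apoe*+ *S100a6*-high cells against control and 0.069 in cells under both cuts. In the *S100a6*-high cells of the control library it was above the other cells of that library, with a log2 ratio of 0.30, and in those of the tumor library below them, at -0.48. *Ear2* had the same opposite signs, at 0.26 in control and -0.32 in tumor. These differences between libraries were not tested.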

How the results depend on the processing

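Over 387 member ratios under the alternatives none changed sign while called, and 188 lay outside the interval of the main value. Outside the class *Chil3* was above 0 under 3 of 16 settings and *Itgax* below 0 under 3 of 16. The 3 members lower in the *Apoe*+ *S100a6*-high cells became 5 at a limit of 1.5-fold (*Siglecf* and *Plet1* added, background 10.8%) and 7 when the class was replaced by the cluster with at least 50% of its cells in it, 38 cells (background 18.7%). At 1.5-fold the 0 lower between the libraries became 3 (background 9.12%) and the 0 outside the class became 1, *Ear1* (background 7.65%). Members detected per cell in the class, 4.81, were 4.60 at a cut of 600 CPM, 5.04 with *Apoe* alone, 5.20 with *S100a6* alone, 2.59 in the 38-cell cluster, 3.83 thinned to 50% of the depth, 5.76 unthinned and 3.52 when at least 2 UMIs were asked for. Comparison with cells under both cuts gave 4 lower members, *Siglecf* added, as did a cut of 600 CPM (background 6.54%) and, added after the data were seen, tumor cluster 4 in place of the class (background 6.86%).

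Other filters, doublet scores, scalings and the removal of other cell types left the counts at 3, 0 and 0, as did, added after the data were seen, removal of low-depth clusters or of the C1q-led cluster and the comparison of cells under both cuts alone. The *Krt79* ratio in the class ranged from -4.13 (38-cell cluster) to -2.02 (*S100a6* alone), that of *Car4* from -3.66 (barcodes with the most UMIs left out) to -1.19 (*S100a6* alone) and that of *Ear1* from -4.81 (38-cell cluster) to -1.28 (*Apoe* alone). *Itgax* was below 0 in the 38-cell cluster alone, at -0.37, and *Atp6v0d2* under 2 of 17 settings, to -0.08. No paired analysis was possible because each group has 1 library.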

Other observations

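The barcodes left out by the quality filter had medians of 1002 UMIs in control and 1067 in tumor. Their members were lower in tumor by more than in the kept cells for *Siglecf* (log2 ratio -1.17, against -0.42), *Ear1* (-1.08, against -0.85), *Ear2* (-1.03, against -0.53) and *Chil3* (-0.86, against -0.15). *Krt79* had -0.66, against -0.69, and *Itgax* was below the control at -0.38 (-0.54 to -0.22), against 0.09. *Car4* (0.02, -0.20 to 0.24) and *Atp6v0d2* (0.01, -0.14 to 0.16) had ratios whose intervals include 0.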
